A study of Homo sapiens with 8 samples.

Results

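The genes described here encode core parts of the spliceosome outside the SF3b complex. They were chosen by name as 41 genes of the snRNPs, the SF3a and U2 auxiliary factors, the PRP proteins and the PRPF19 complex. Of these, 36 have listed introns, among 15902 genes in all. U2AF1, PRPF8, PRPF31, DHX16 and PUF60 were not analysed here. The cells were SUM159, an established human breast cancer line with mesenchymal features. Cultures were exposed for 12 hours to H3B-8800, an inhibitor of the spliceosome, or to its vehicle DMSO. The 4 groups were J2 RNA with H3B-8800, J2 RNA with DMSO, input RNA with H3B-8800 and input RNA with DMSO, with 2 libraries each. J2 RNA was recovered with the J2 antibody, which binds double-stranded RNA, and input RNA was not enriched. All libraries came from polyadenylated RNA of 1 cell line, so every result is for that line. The replicates are described as biological duplicates, and p-values measure the spread between these.

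The spliceosome assembles on each intron from small nuclear ribonucleoproteins, the snRNPs. U1 binds the 5′ splice site, SF1 and the U2AF proteins bind the branch point and the 3′ end of the intron, and U2 then replaces SF1 at the branch point. The U4/U6.U5 tri-snRNP joins, and helicases and the PRPF19 complex turn the assembly into the active enzyme. H3B-8800 binds the SF3b part of U2, which holds the branch point.

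Each gene was described by reads spliced across its introns and by reads inside them. The 3′ ends of introns are shown first, because SF1, U2AF2 and U2 recognise that part and several of the results turn on single introns. Each line holds the last bases of an intron and the first bases of the next exon, 5′ to 3′ on the gene's strand, and the capitals mark the AG at the intron's end. The first 5 are introns whose intronic share was higher with the drug, and the last 3 are introns of the same genes with an intronic share of at most 4.32% in any group.
SYF2 intron 1, chr1:25232207-25232261, minus strand: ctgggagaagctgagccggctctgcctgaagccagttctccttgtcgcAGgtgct
SNRPC intron 1, chr6:34757862-34757916, plus strand: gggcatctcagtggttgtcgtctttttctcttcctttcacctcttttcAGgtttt
SNRNP200 intron 30, chr2:96284581-96284635, minus strand: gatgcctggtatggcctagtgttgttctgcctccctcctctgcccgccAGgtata
DHX38 intron 14, chr16:72104436-72104490, plus strand: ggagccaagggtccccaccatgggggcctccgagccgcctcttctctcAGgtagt
EFTUD2 intron 22, chr17:44853631-44853685, minus strand: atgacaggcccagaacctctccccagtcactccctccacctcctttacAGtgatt
SNRNP200 intron 31, chr2:96284000-96284054, minus strand: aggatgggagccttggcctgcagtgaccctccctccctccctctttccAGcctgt
DHX38 intron 23, chr16:72108750-72108804, plus strand: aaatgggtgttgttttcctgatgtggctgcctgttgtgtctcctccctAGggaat
EFTUD2 intron 16, chr17:44860041-44860095, minus strand: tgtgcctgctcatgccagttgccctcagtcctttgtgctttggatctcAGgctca

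These sequences are from GENCODE 29 transcripts on GRCh38 whose exons cover the site. Each intron with a sequence shown therefore overlaps an annotated exon of its own gene, at least at that site. The share of C and T from 20 to 4 bases before the exon was 70.6% in SYF2 intron 1, 94.1% in SNRPC intron 1 and 88.2% in SNRNP200 intron 30. It was 76.5% in DHX38 intron 14 and 88.2% in EFTUD2 intron 22. In the 3 introns that stayed spliced it was 100% in SNRNP200 intron 31, 82.4% in DHX38 intron 23 and 70.6% in EFTUD2 intron 16. The ranges of the 2 sets overlap, so this share does not separate the introns shown. For U2AF2 intron 3, which carries one of the largest changes, the 5′ splice site is given with its GT in capitals.
U2AF2 intron 3, chr19:55660219-55660231, plus strand: gatGTgagcttct

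The depth behind the deposited values was 47000000 to 57000000 reads per library. Mesenchymal markers summed to 852 to 1068 RPM (reads per 1000000 reads of depth), with all 8 listed. VIM alone had 459 to 653 RPM, while ZEB1 was low, at 0.0377 to 0.902 RPM. Luminal and epithelial markers summed to 1.72 to 2.48 RPM. Of these, GATA3 had 1.54 to 2.33 RPM, and ESR1, the estrogen receptor gene, was at 0. Immune markers summed to 0 to 0.412 RPM. All values are per library depth, so fewer cells and less RNA per cell cannot be told apart.

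In input RNA, spliced reads of most of these genes were higher with H3B-8800. Of the 36 genes, 22 rose and 7 fell with edgeR's quasi-likelihood test at a Benjamini-Hochberg adjusted p under 0.05. Over all 8248 genes tested, 21.9% rose and 48.2% fell. The median log2 fold change was 0.46 over the 36 genes and -0.36 over all genes tested. Both drug libraries lay above both DMSO libraries for 27 of the 36 genes and below them for 8. This was not counted over all genes, so it sets nothing apart in these 36. With median-of-ratios scaling, which moved the median of all genes tested to 0.04, 3074 of the 8248 genes rose and 2836 fell. Of the 36 genes, 29 rose and 5 fell with it. Of 52 other spliceosomal genes tested, 23 rose and 13 fell, and their median was 0.21.

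**Figure D1:**
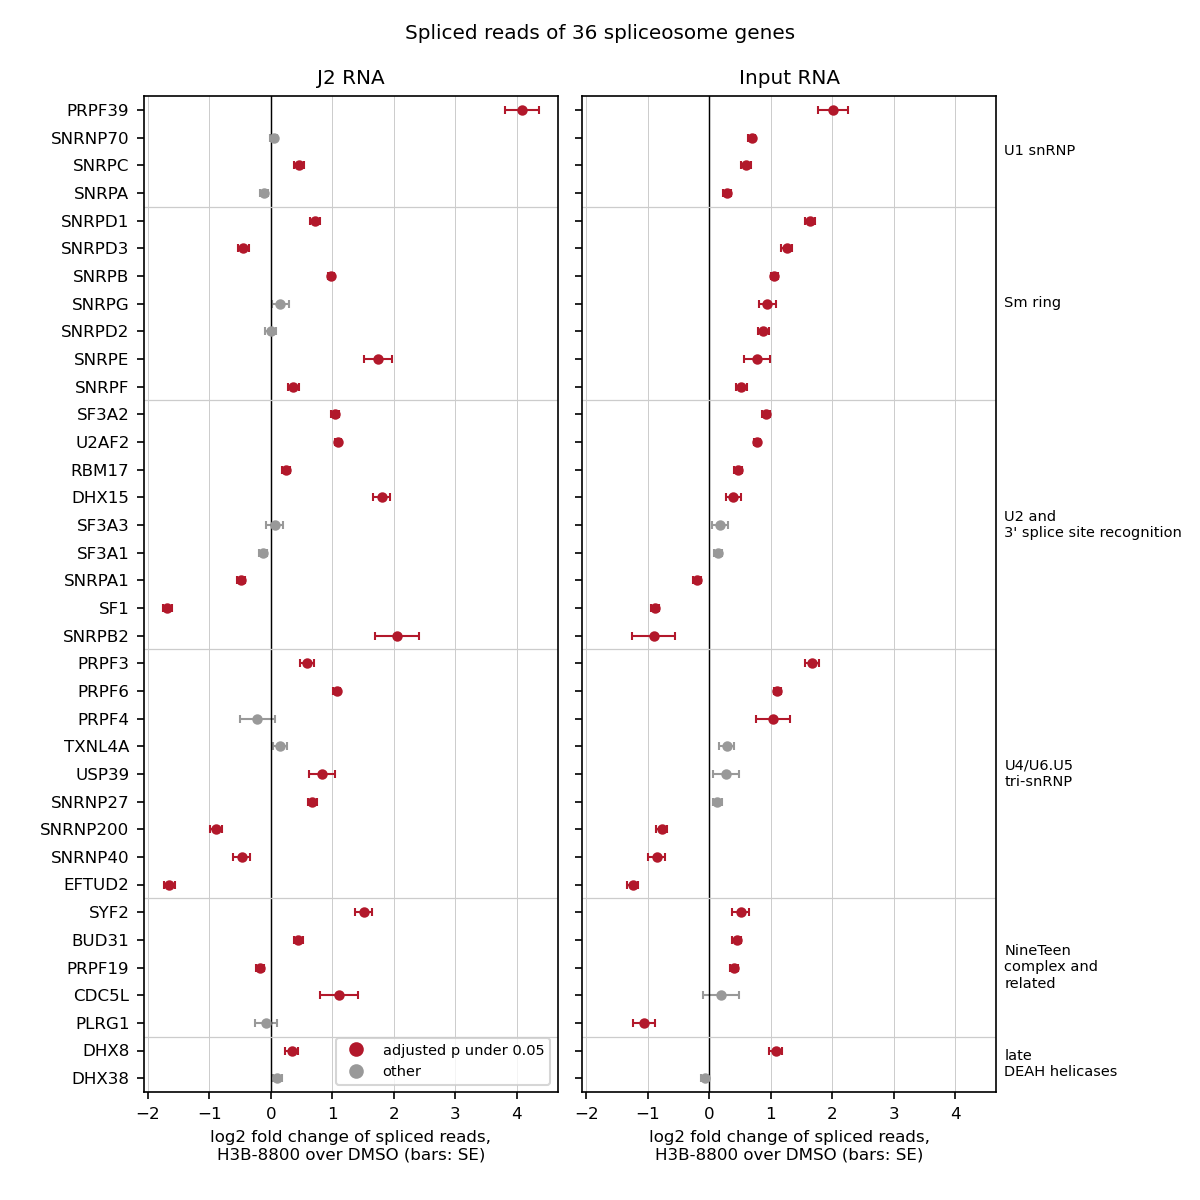
Log2 fold change of spliced reads, H3B-8800 over DMSO, for the 36 genes in J2 RNA and input RNA (bars: SE; 2 libraries per group; red: adjusted p under 0.05). All 7 Sm genes lie to the right of 0 in input RNA, while SF1, EFTUD2 and SNRNP200 lie to the left in both RNAs.

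The Sm proteins form the ring around each snRNA. All 7 Sm genes rose in input RNA, by 0.52 (SNRPF) to 1.63 (SNRPD1) on the log2 scale. SNRPD1 had 64.8 and 74.0 RPM with drug, against 21.7 and 23.0 RPM with DMSO (log2 fold change 1.63, SE 0.082, edgeR Benjamini-Hochberg adjusted p = 1.1e-07). SNRPD3 had 47.4 and 56.6 RPM with drug, against 22.2 and 21.3 RPM with DMSO (1.26, SE 0.089). Both genes stood above DMSO in both drug libraries. SNRPB, the most abundant of the ring by reads, had 257.5 and 271.1 RPM with drug, against 129.4 and 123.8 RPM with DMSO. Processed pseudogenes of several Sm genes exist, and how reads matching more than 1 place were counted is not given in the sources used here.

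All 4 U1 genes rose too. PRPF39, a U1-associated factor that helps recruit U1 to 5′ splice sites, had the largest change in input RNA. It had 7.81 and 6.98 RPM with drug, against 1.94 and 1.73 RPM with DMSO (log2 fold change 2.01, SE 0.25). Its rise was uneven along the gene: at intron 1 the junction had 4.40 and 4.25 RPM with drug, against 0.521 and 0.627 RPM with DMSO, while the other junctions were each under 0.6 RPM in every input library. With the median junction in place of the sum, an alternative chosen after seeing the data, the call was lost (log2 fold change 1.18, edgeR adjusted p = 0.13). The core U1 genes changed less, by 0.69 for SNRNP70, 0.60 for SNRPC and 0.29 for SNRPA.

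Among the genes grouped under U2 and 3′ splice site recognition, 4 of 9 rose and 3 fell. The helicase DHX15, placed in this group here, was 1 of those that rose. SF3A2, a subunit of the SF3a part of U2, had 113.9 and 115.4 RPM with drug, against 59.4 and 61.5 RPM with DMSO. U2AF2, which binds the pyrimidine tract, had 264.2 and 269.6 RPM with drug, against 154.6 and 157.3 RPM with DMSO (log2 fold change 0.78, SE 0.045). All 10 listed U2AF2 junctions were higher with drug in input RNA, by 1.45 to 1.99-fold. SF1, the first branch point binder, went the other way, with 30.8 and 34.4 RPM with drug, against 60.6 and 59.4 RPM with DMSO (log2 fold change -0.88, SE 0.073). SNRPB2, a U2 snRNP protein, fell by 0.90 (SE 0.35, edgeR adjusted p = 0.041), but this call was lost under median-of-ratios scaling (-0.50, edgeR adjusted p = 0.17) and on leaving out any 1 library other than those of J2 RNA with drug.

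The tri-snRNP genes were divided, with 3 of 9 rising and 3 falling. PRPF3, a U4/U6 protein, had 30.1 and 37.8 RPM with drug, against 10.7 and 10.6 RPM with DMSO (log2 fold change 1.67, SE 0.11). PRPF6, which bridges U5 and U4/U6, had 109.2 and 112.6 RPM with drug, against 50.8 and 52.0 RPM with DMSO. Both lay well above their DMSO libraries. EFTUD2, the U5 GTPase, had 25.1 and 26.8 RPM with drug, against 63.4 and 59.4 RPM with DMSO (log2 fold change -1.24, SE 0.087). SNRNP200, the helicase that unwinds U4 from U6, had 31.9 and 39.1 RPM with drug, against 61.3 and 60.3 RPM with DMSO. Each EFTUD2 and SNRNP200 junction of at least 0.4 RPM was lower with drug, 20 of 20 and 38 of 38. SNRNP40, a U5 protein, fell by 0.85.

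In the PRPF19 complex group, PRPF19, BUD31 and SYF2 rose by 0.40 to 0.51 on the log2 scale, in reads summed over the gene. Of junctions of at least 0.4 RPM, 14 of 14 were higher with drug in PRPF19, but 3 of 5 in BUD31 and 2 of 4 in SYF2. PLRG1, a WD-repeat subunit, had 3.47 and 3.04 RPM with drug, against 6.48 and 7.14 RPM with DMSO (log2 fold change -1.06, SE 0.18). The fall lay at introns 2, 3 and 8 to 14. At intron 9 the junction had 0.0426 and 0.0208 RPM with drug, against 0.583 and 0.431 RPM with DMSO, while at intron 1 it had 0.915 and 0.812 RPM with drug, against 0.729 and 1.12 RPM with DMSO. DHX8, a helicase that releases spliced mRNA, had 26.9 and 31.7 RPM with drug, against 13.8 and 13.9 RPM with DMSO.

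In J2 RNA, 19 of the 36 genes rose and 7 fell with the drug by the same test, where 34.5% of all genes tested rose and 39.5% fell. The median log2 fold change was 0.30 over the 36 genes and -0.03 over all. PRPF39 again had the largest change, with 9.42 and 15.9 RPM with drug, against 0.849 and 0.649 RPM with DMSO (log2 fold change 4.08, SE 0.28). Here its junctions were higher along the whole gene: at intron 12 the values were 0.980 and 1.49 RPM with drug, against 0.0566 and 0.0526 RPM with DMSO. The drug and DMSO libraries did not overlap at either junction.

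SNRPB2 had 4.88 and 12.6 RPM with drug, against 2.15 and 2.07 RPM with DMSO in J2 RNA (log2 fold change 2.05, SE 0.36). The drug libraries were far apart but both above DMSO. DHX15, a helicase that takes spliceosomes apart, had 5.54 and 5.38 RPM with drug, against 1.51 and 1.61 RPM with DMSO (1.80, SE 0.13). SYF2 had 14.3 and 19.1 RPM with drug, against 6.06 and 5.68 RPM with DMSO (1.51, SE 0.14). SNRPE had 4.66 and 7.32 RPM with drug, against 1.96 and 1.63 RPM with DMSO (1.74, SE 0.23). CDC5L, a scaffold of the PRPF19 complex, had 2.04 and 3.93 RPM with drug, against 1.62 and 1.14 RPM with DMSO (1.11, SE 0.31).

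The J2 changes moved with transcript GC content and length. With each library's trend over both removed, log2 fold changes in J2 RNA were 3.25 for PRPF39, 1.26 for SNRPB2, 1.00 for SNRPE and 0.87 for SYF2, all still called by edgeR. The CDC5L call was lost (0.19, edgeR adjusted p = 0.51), as was that of SNRPD3 (-0.09, edgeR adjusted p = 0.39). The part of GC content and length in the J2 recovery was not tested further.

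The genes that fell in J2 RNA included SF1, with 13.8 and 12.6 RPM with drug, against 42.5 and 42.2 RPM with DMSO (log2 fold change -1.68, SE 0.076). EFTUD2 had 21.5 and 17.9 RPM with drug, against 62.5 and 61.0 RPM with DMSO (-1.65, SE 0.088). SNRNP200 had 24.6 and 21.5 RPM with drug, against 42.2 and 43.2 RPM with DMSO (-0.89, SE 0.098). These 3 genes fell in both RNAs. SNRPA1, the U2 protein that pairs with SNRPB2, fell by 0.48, a call lost with the median junction (-0.05, edgeR adjusted p = 0.88). SNRNP40 fell by 0.47, a direction that turned with the median junction in place of the sum (0.20).

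Without drug, 21 of the 36 genes were lower in J2 RNA than in input RNA and 6 were higher, against 43.8% lower and 16.6% higher over all genes (edgeR, as above). The lowest was DHX15, with 1.51 and 1.61 RPM in J2 RNA with DMSO, against 6.46 and 6.22 RPM in input RNA with DMSO (log2 fold change -2.02, SE 0.13). SNRPB2 followed at -1.69 and PRPF39 at -1.29. SNRPD3 was the highest at 0.41. With median-of-ratios scaling, which moved the median of all genes to 0.10, 2216 of all 8248 genes were lower and 2952 higher. Of the 36 genes, 11 were lower and 12 higher with it. Without any 1 of the 4 DMSO libraries, 2 were higher.

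The interaction term, the log2 fold change with drug in J2 RNA less the one in input RNA, was called above 0 for 8 and below 0 for 14 of the 36 genes, where 35.8% of all genes were above and 14.2% below. The median was -0.13 over the 36 genes and 0.28 over all. SNRPB2 had the largest difference, 2.95 (SE 0.50, edgeR Benjamini-Hochberg adjusted p = 0.0012): it was higher with drug in J2 RNA and lower with drug in input RNA at each of its 5 listed junctions. SNRPD3 had the opposite pattern, with 21.1 and 21.2 RPM with drug, against 27.7 and 29.9 RPM with DMSO in J2 RNA, and a difference of -1.71 (SE 0.13). PRPF39 (2.07) and DHX15 (1.41) differed upward, and PRPF3 (-1.08) and SNRPD1 (-0.92) downward. With median-of-ratios scaling 5 were above and 23 below 0, and with the GC and length trend removed 12 and 8. Over all 8248 genes, 1792 were above and 2110 below with that scaling, and 3357 and 762 with the trend removed.

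**Figure D2:**
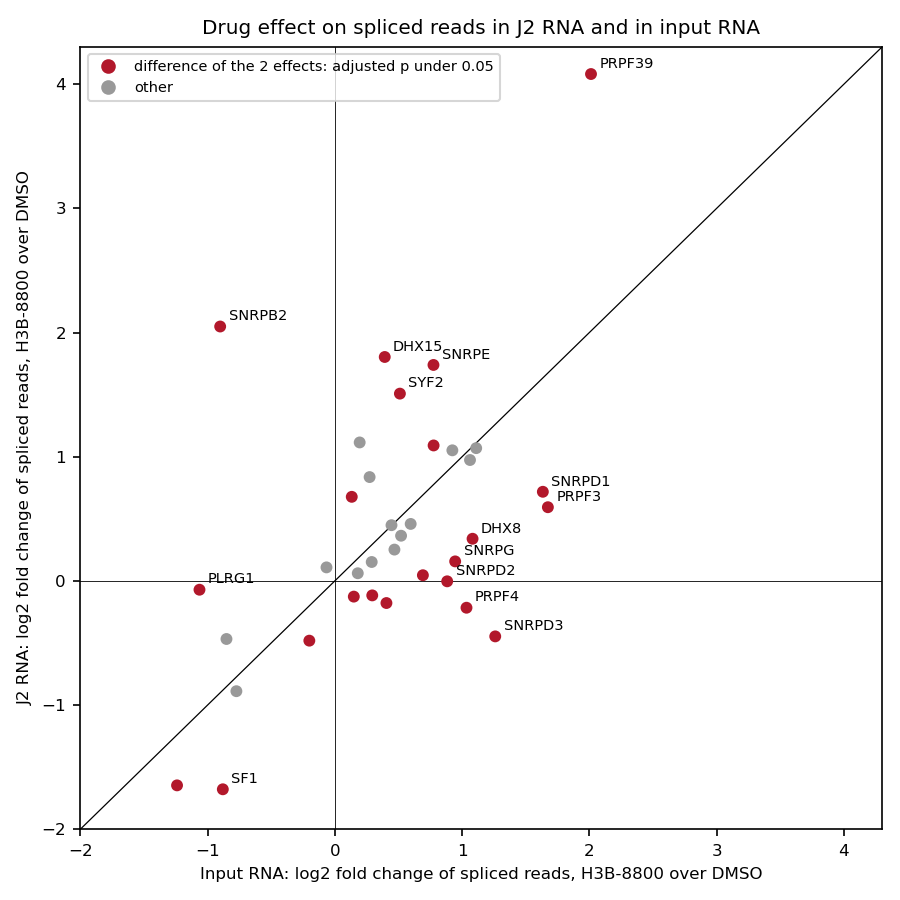
Drug effect on spliced reads (log2 fold change, H3B-8800 over DMSO) in J2 RNA on the vertical axis and in input RNA on the horizontal axis, 1 point per gene, with the line of equal effects. SNRPB2 at 2.05 in J2 RNA and -0.90 in input RNA and SNRPD3 at -0.45 and 1.26 lie on opposite sides of 0 in the 2 RNAs.

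**Figure D3:**
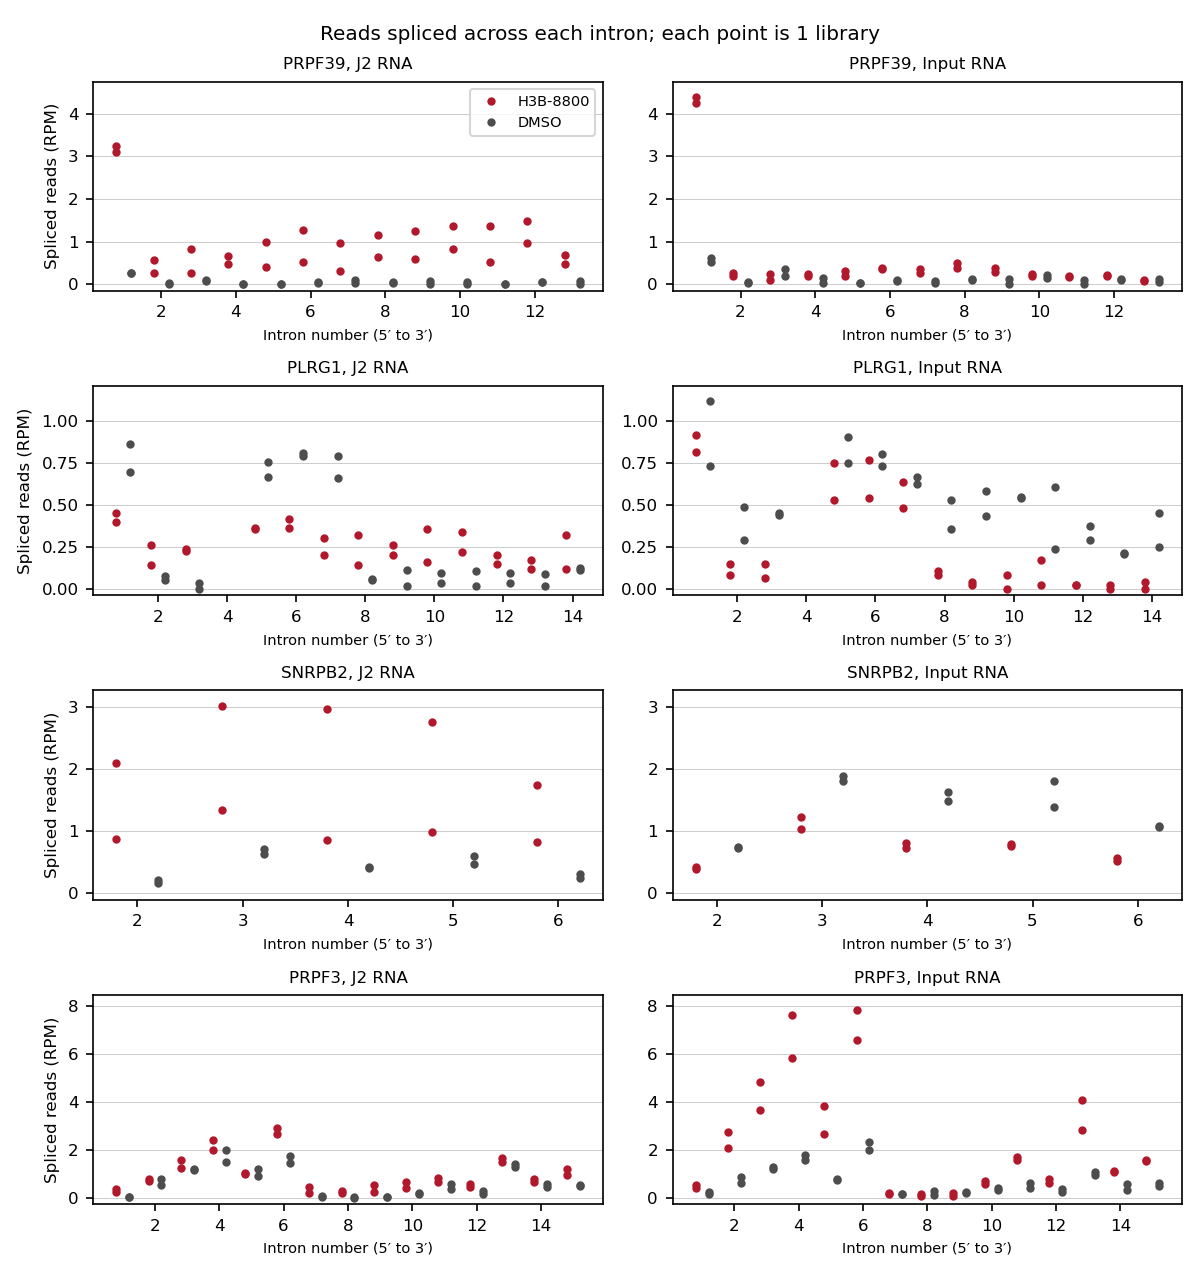
Reads spliced across each listed intron of PRPF39, PLRG1, SNRPB2 and PRPF3 (RPM, 1 point per library, red H3B-8800, grey DMSO). In input RNA the rise of PRPF39 is largest at intron 1, and the fall of PLRG1 lies at introns 2, 3 and 8 to 14. In J2 RNA PRPF39 is higher with drug at every junction.

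Reads inside introns made up more of the total with the drug. Over the 36 genes together, intronic reads made up 9.81% ± 0.311 in J2 RNA with drug and 0.751% ± 0.00518 with DMSO. In input RNA they made up 6.69% ± 0.0613 with drug and 1.69% ± 0.0276 with DMSO (SD, n = 2 each). Over all genes the shares were 12.7% with drug and 3.80% with DMSO in J2 RNA, and 11.6% with drug and 3.82% with DMSO in input RNA. An exact two-sided permutation test of 2 against 2 libraries cannot go below p = 0.333. The share counts reads, which grow with intron length, and is not a share of molecules.

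By intronic reads per gene, 20 of the 36 genes rose in J2 RNA and none fell, where 59.5% of all genes rose and 3.82% fell. In input RNA 16 rose and none fell, where 51.7% rose and 4.1% fell (edgeR, as above). By the ratio of intronic to spliced reads, 19 rose and 1 fell in J2 RNA (57.6% and 4.69% over all genes). In input RNA 14 rose and none fell (58.8% and 2.05%; limma with Benjamini-Hochberg). The median log2 change of the ratio was 1.55 in J2 RNA and 1.04 in input RNA over the 36 genes, and 1.67 and 1.69 over all. These splits depended on the scaling: with median-of-ratios scaling, intronic reads rose for 12 and fell for 5 genes in J2 RNA, and rose for 10 and fell for 5 in input RNA. Over all 8204 genes, 2134 rose and 1803 fell in J2 RNA, and 1921 and 1653 in input RNA. This scaling moved the median over all genes from 1.76 to 0.06 in J2 RNA and from 1.27 to -0.03 in input RNA. Relative to the median gene, the ratio rose for 9 and fell for 11 in J2 RNA, and rose for 9 and fell for 10 in input RNA. Over all 8248 genes it rose for 1994 and fell for 2157 in J2 RNA, and for 1709 and 1787 in input RNA.

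SYF2, a PRPF19 complex-related factor, had the highest intronic share with drug in both RNAs. With DMSO the highest was PRPF39 in J2 RNA (26.1%, on 29 intronic reads over both libraries) and SNRNP70 in input RNA (12.4%). The share of SYF2 was 53.8% and 45.4% with drug, against 1.23% and 1.22% with DMSO in J2 RNA, and 45.3% and 47.8% with drug, against 2.18% and 3.17% with DMSO in input RNA. PRPF6 was at 38.4% and 37.7% with drug, against 2.09% and 2.50% with DMSO in J2 RNA. EFTUD2 was at 6.99% and 8.14% with drug, against 0.211% and 0.172% with DMSO in J2 RNA. No drug library of these genes overlapped a DMSO library. EFTUD2 thus had fewer spliced reads, summed over the gene, and a larger intronic share, while PRPF6, SYF2 and U2AF2 had more of both.

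Of the 7 Sm genes, SNRPD2 alone had a raised ratio, in both RNAs, where 57.6% of all genes rose in J2 RNA and 58.8% in input RNA. The median log2 change of the ratio over the 7 was 0.17 in J2 RNA and -0.49 in input RNA. SNRPD1, SNRPD3, SNRPE and SNRPF had group means of at most 0.211 RPM of intronic reads, so their ratio follows the spliced reads and the added 1, and no difference between the Sm genes and other genes was tested. SNRPD2 was at 32.5% and 26.4% with drug, against 1.16% and 1.20% with DMSO in J2 RNA, and at 12.9% and 11.5% with drug, against 1.45% and 1.35% with DMSO in input RNA. Its only listed intron overlaps another annotated exon of the same gene. PRPF39 was the gene whose ratio fell in J2 RNA, with 13.7% and 14.0% with drug, against 26.2% and 26.0% with DMSO, a call lost without either J2 drug library. Its intronic reads rose there (log2 fold change 2.94, edgeR adjusted p = 1.3e-11), but less than its spliced reads (4.08). The difference between RNAs was called for SNRNP70 (1.97) and SNRPD2 (1.81), 2 of 36 genes, where 1.59% of all genes were above and 0.994% below 0. No call of these 2 was left without either library of J2 RNA with drug, either library of input RNA with drug, or replicate 1 of input RNA with DMSO.

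**Figure D4:**
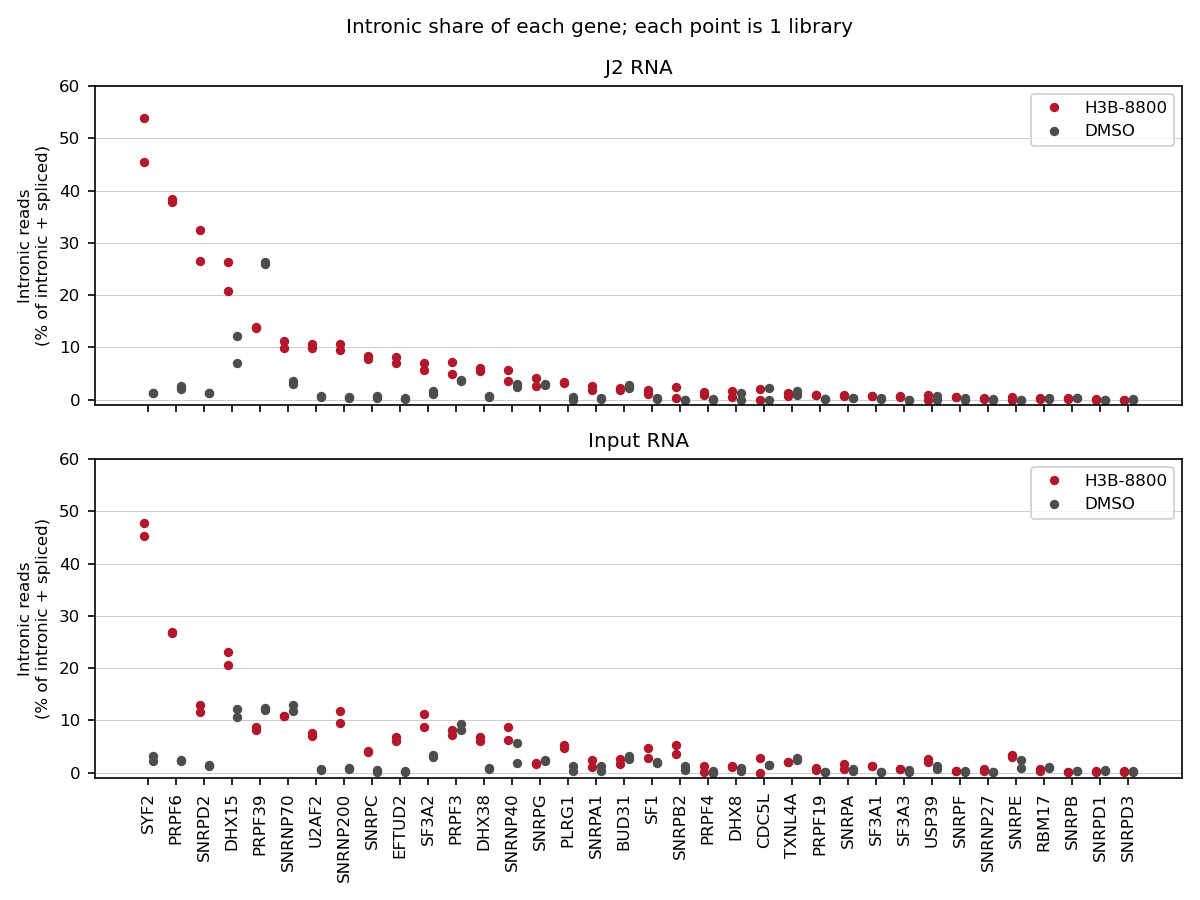
Intronic reads as a percent of intronic and spliced reads of each gene, 1 point per library (red H3B-8800, grey DMSO), genes in order of their share in J2 RNA with drug. SYF2 and PRPF6 lead with drug in both RNAs, and PRPF39 has the higher share with DMSO.

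Of 380 listed introns of these genes, 289 had enough reads to test, a mean of at least 20 over the libraries. In J2 RNA the ratio rose at 82 and fell at 15, where 39.9% of all 45220 introns rose and 6.24% fell. In input RNA it rose at 56 and fell at 18, where 40.7% rose and 2.76% fell (limma, Benjamini-Hochberg). The ratio can move with spliced reads alone: 29 of the 82 and 7 of the 56 risen introns had no intronic read in either group, EFTUD2 intron 16 among them. The same held for 9 of the 15 introns that fell in J2 RNA and 10 of the 18 that fell in input RNA. With at least 10 intronic reads over the drug libraries, 35 of the 289 introns rose in J2 RNA and 32 in input RNA, where 24.9% and 24.6% of all introns met the same rule. This minimum admits introns through the group in which they are high, so the counts only describe. On simulated introns in input RNA this test recovered 0 of 200 planted changes. With its variance trend taken over intronic reads, an alternative chosen after seeing the data, 92 rose and 22 fell in J2 RNA and 60 rose and 26 fell in input RNA. Over all 45220 introns this trend gave 18827 that rose and 3507 that fell in J2 RNA, and 19450 and 1676 in input RNA. Relative to the median intron, 9546 of all introns rose and 7881 fell in J2 RNA, and 7796 and 7139 in input RNA. Of the 289 introns of these genes, 28 rose and 59 fell in J2 RNA, and 19 rose and 72 fell in input RNA. As designed, the risen introns in J2 RNA numbered 49 without either library of J2 RNA with DMSO, and those in input RNA 35 and 31 without replicate 1 and replicate 2 of input RNA with DMSO.

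Most tested introns stayed spliced. No intronic read was seen in any library at 82 of the 289. At least 10% of reads were intronic at 34 introns in J2 RNA with drug and 10 with DMSO, and at 40 in input RNA with drug and 13 with DMSO. These counts were not made over all introns, so they set nothing apart in the introns of these genes.

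How far intronic reads gathered in single introns differed between genes. With drug, the leading intron held over 50% of a gene's intronic reads in 13 of 21 genes in J2 RNA and 17 of 26 in input RNA, among genes with at least 20 such reads. With DMSO it did so in 9 of 13 genes in J2 RNA and 16 of 21 in input RNA. This was not counted over all genes. In J2 RNA with drug the leading intron's share ran from as little as 21.9% in PRPF3 to 100% in SNRPD2, which has 1 listed intron. U2AF2 intron 3 (chr19:55660222-55660515, 294 bases) was 66.4% and 67.7% intronic with drug, against 1.30% and 1.48% with DMSO in J2 RNA (log2 change of the ratio 6.97, SE 0.34, limma Benjamini-Hochberg adjusted p = 8.2e-05). In input RNA it was 50.8% and 52.8% with drug, against 1.16% and 0.621% with DMSO (6.71, SE 0.34). It held 94.4% of the gene's intronic reads in J2 RNA with drug. At intron 1 the share was lower with drug, at 1.54% and 1.96%, against 6.25% and 4.96% with DMSO in J2 RNA.

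PRPF6 intron 19 of 20 (chr20:64029492-64031917, 2426 bases) was 91.2% and 90.2% intronic with drug, against 16.4% and 21.1% with DMSO in J2 RNA. In input RNA it was 84.1% and 85.3% with drug, against 18% and 15.4% with DMSO. PRPF6 intron 17 had no intronic read with DMSO in J2 RNA and reached 21.1% and 24.5% with drug. Both introns rose in both RNAs. SYF2 intron 1 (232 bases, the first sequence shown) was 63.2% and 59.96% intronic with drug, against 1.53% and 1.46% with DMSO in J2 RNA, and held 99.4% of the gene's intronic reads with drug. It overlaps another annotated exon of SYF2, so part of these reads may belong to that exon.

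SNRNP200 intron 30 of 44 was 73.1% and 71.9% intronic with drug, against 5.88% and 0% with DMSO in J2 RNA (log2 change 6.53, SE 0.80). Introns 34, 35 and 39 also rose in both RNAs, and intron 31, next to intron 30, stayed at 3.57% with drug and 0% with DMSO in J2 RNA, libraries pooled. EFTUD2 intron 22 was 40.8% and 37.8% with drug, against 1.83% and 1.25% with DMSO, while intron 16 had no intronic read in any group. DHX38, a helicase of the second catalytic step, was 42.1% and 36.7% intronic at intron 14 with drug, against 1.67% and 0% with DMSO in J2 RNA, and 67.9% and 59.3% with drug, against 15.3% and 16.9% with DMSO in input RNA. SNRPC intron 1, which overlaps another exon of SNRPC, was 79.3% and 69.8% with drug, against 12.1% and 19.2% with DMSO in J2 RNA.

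**Figure D5:**
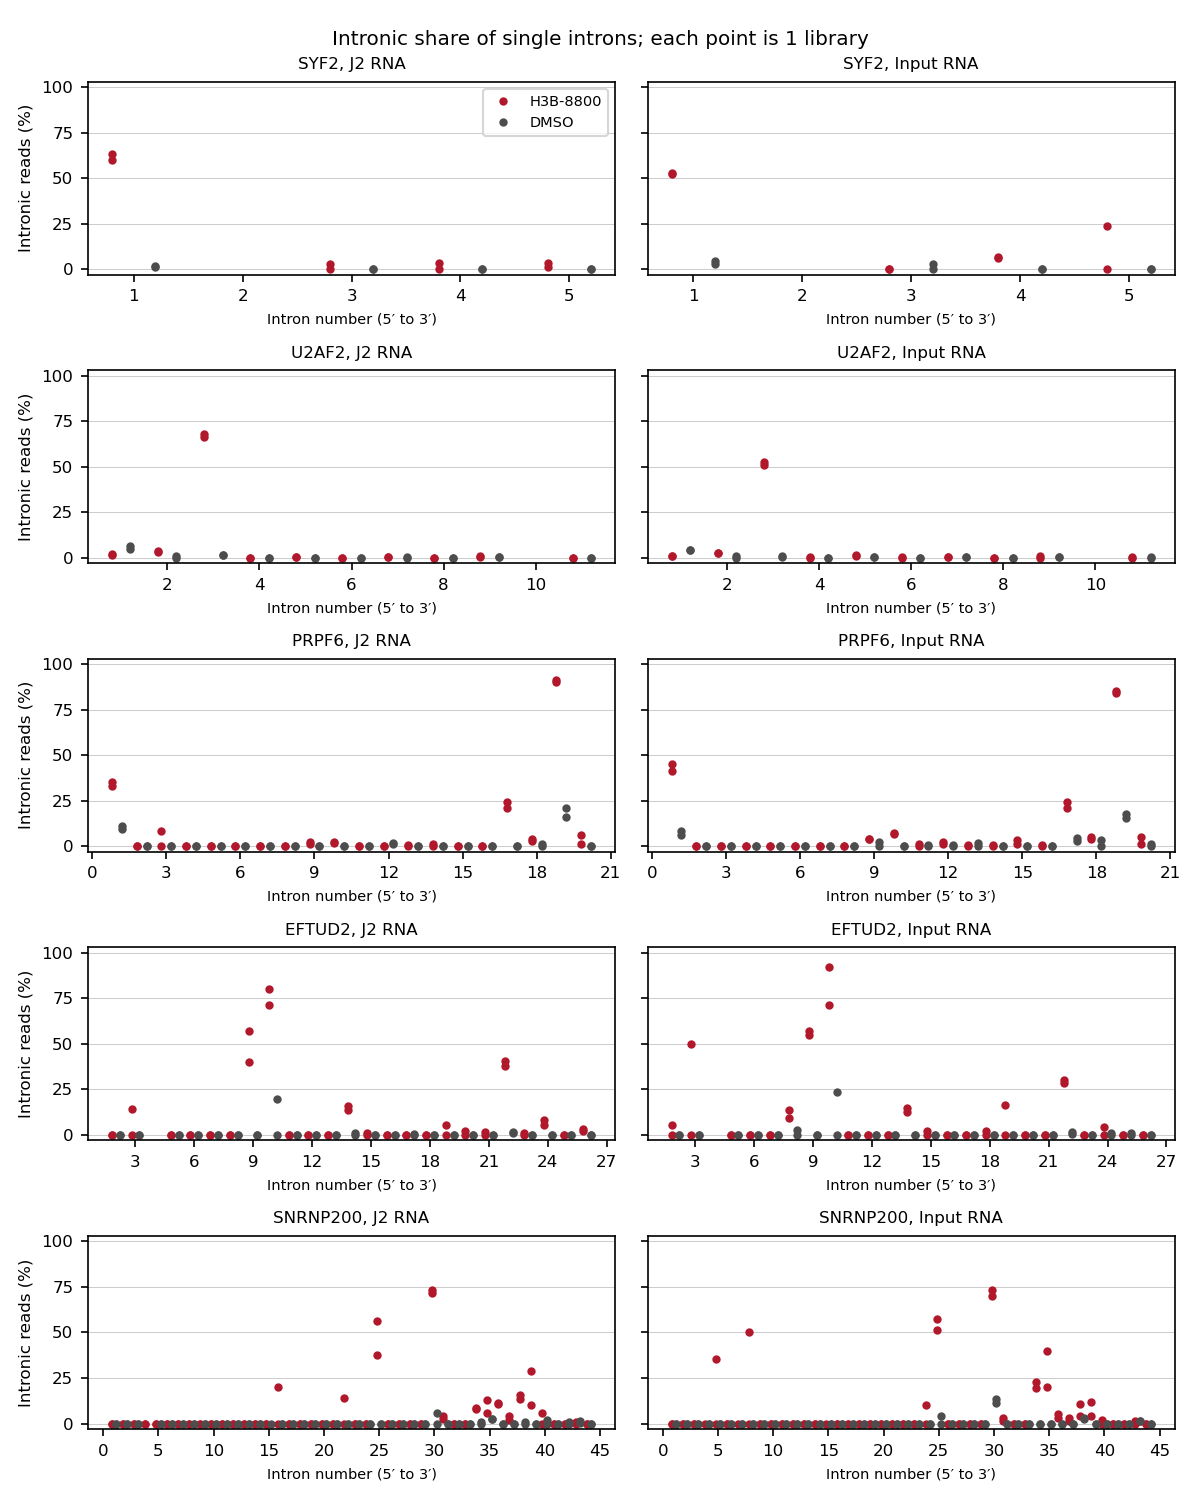
Intronic share of each listed intron of SYF2, U2AF2, PRPF6, EFTUD2 and SNRNP200 (percent of intronic and spliced reads, 1 point per library, red H3B-8800, grey DMSO), numbered from the 5′ end. U2AF2 intron 3, PRPF6 intron 19 and SNRNP200 intron 30 stand above 50% with drug, and the introns next to each were at most 4.45% intronic with drug, libraries pooled; a few high points, such as EFTUD2 introns 9 and 10, rest on under 50 reads per group and were not tested.

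Few introns fell. PRPF3 intron 4 was 3.52% and 3.42% intronic with drug, against 23.2% and 24.3% with DMSO in input RNA (log2 change -3.03, SE 0.56), and 1.64% and 0% with drug, against 6.98% and 3.39% with DMSO in J2 RNA. It overlaps another annotated exon of PRPF3. SNRPB intron 2, where an exon of another gene lies on the same strand, had no intronic read with drug in either RNA.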

How the data were processed

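Introns of 36 genes were analysed in 8 libraries of SUM159 cells in 4 groups, taken from the sample titles. HISAT2 2.0.4, hg38 and mm10 are named in the submitters' processing notes. The counting program and strand setting are not given in the sources used here, so antisense reads cannot be told apart. Both counts per intron were deposited by the authors without normalization, and the second is never below the first. The first was taken as intronic reads and the excess as spliced reads, which no header states. The deposited RPKM was computed by the authors from the first count, and it gave the depth used as library size. Of 142224 introns, 18 without totals were left out.

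Spliced and intronic reads were summed per gene and tested with edgeR 4.0.16 (quasi-likelihood) in R 4.3.3, with 4 group means over 8 libraries. Genes needed a mean of 1 RPM of intronic plus spliced reads (8248 genes). The ratio, log2 of intronic + 1 over spliced + 1 reads, was tested with limma 3.58.1 per gene and per intron, with a variance trend over total reads and a mean of at least 20 reads per intron. Benjamini-Hochberg adjustment ran over all features, with a threshold of 0.05. DESeq2 1.42.0, other scalings, filters, pseudocounts, GC content and length, and left-out libraries were alternatives.

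Tests were run on simulated input data with 200 features changed by 2 on the log2 scale. edgeR recovered 200 for spliced reads of 8248 genes, and 196 for intronic reads of 8189 genes. The gene ratio test recovered 171 with 12 false calls. The intron ratio test, kept as it was designed, recovered 0 of 200 among 45220 introns. For that reason a trend over intronic reads was added as an alternative, which recovered 166 with 10 false calls. An earlier addition, made after introns without intronic reads were seen among the calls, was edgeR with total reads as offset, which recovered 144 with 56 false calls, above its nominal rate.

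Members, lists and alternatives were chosen with earlier results of these data known. Named genes are up to 6 each way with the largest called change, and introns up to 10 with at least 50 reads in each group. Values of single junctions, the falling introns of PRPF3, U2AF2 and SNRPB, the spliced introns set beside retained ones, and the introns under other observations were chosen after their values were seen. Errors rest on 2 libraries per group.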

Additional observations from a re-analysis of the deposited data

Results flagged for a closer look

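The drug effect differed between J2 RNA and input RNA, by the interaction term, for the genes listed here. Values are the log2 fold change with H3B-8800 over DMSO in J2 RNA minus that in input RNA. For spliced reads, tested with edgeR's quasi-likelihood test and Benjamini-Hochberg adjustment, the difference was above 0 for DHX15 (1.41), PLRG1 (0.99), PRPF39 (2.07), SNRNP27 (0.54), SNRPB2 (2.95), SNRPE (0.96), SYF2 (1.00) and U2AF2 (0.31). It was below 0 for DHX8 (-0.74), EFTUD2 (-0.41), PRPF19 (-0.58), PRPF3 (-1.08), PRPF4 (-1.25), SF1 (-0.80), SF3A1 (-0.28), SNRNP70 (-0.65), SNRPA (-0.41), SNRPA1 (-0.28), SNRPD1 (-0.92), SNRPD2 (-0.89), SNRPD3 (-1.71) and SNRPG (-0.79). The PRPF4 value rests on 2 libraries of input RNA with drug that lay far apart (mean 19.8 RPM, SD 10.4). For the ratio of intronic to spliced reads, tested with limma, it was above 0 for SNRNP70 (1.97) and SNRPD2 (1.81). For spliced reads, the median difference over all 8248 genes was 0.28, so U2AF2 lay near the typical gene. How many genes were called on each side moved with the scaling, as given above. No explanation was tested.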

How the results depend on the processing

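With 2 libraries per group, p-values rest on few degrees of freedom, and low intronic counts limit single introns. Of 83 single results, 66 kept direction and threshold under every setting run for them, which for most settings was only part of the 83 (30 to 48 results), and SNRNP40 in J2 RNA reversed with the median over introns (0.20). Scaling moved the median of all genes by over 0.1: for spliced reads in input RNA it was 0.04 with median-of-ratios scaling, against -0.36 as reported. Differences between replicates correlated at -0.07 to 0.12 between groups, with the highest value between J2 RNA and input RNA with DMSO. Whether replicate numbers pair the libraries cannot be told from this. With the replicate block 1 gene, against 2, had a higher ratio in the interaction. Counts over all features moved too: with DESeq2, intronic reads in J2 RNA rose for 1763 and fell for 1543 of 8204 genes, against 4884 and 313 as reported. Counts of members that rose and fell moved by over 1.5 times as follows. For the ratio per intron in J2 RNA, 45 rose and 7 fell at 5 times the minimum of reads, 38 and 4 with edgeR and total reads as offset, and 28 and 59 with the ratio centred on the median intron. In input RNA the same settings gave 32 and 11, 31 and 5, and 19 and 72. For the ratio per gene, centring gave 9 that rose and 11 that fell in J2 RNA and 9 and 10 in input RNA, introns free of other genes' exons gave 2 that fell in J2 RNA, and 5 times the minimum gave 1 that fell in the interaction. For intronic reads in J2 RNA, 11 rose and 3 fell with DESeq2, 12 and 4 with TMM scaling and 12 and 5 with median-of-ratios scaling, 13 rose with the filter on tested reads, and 1 fell with introns free of other genes' exons. In input RNA, 9 rose and 3 fell with DESeq2, 10 and 5 with median-of-ratios scaling, and 4 fell with TMM. For J2 against input with DMSO, 11 rose and 10 fell with DESeq2, 12 and 11 with median-of-ratios scaling, and 11 rose with TMM. For spliced reads in J2 RNA, 4 fell with the median over introns. In the interaction for spliced reads, 4 rose and 23 fell with DESeq2 and with TMM, 5 and 23 with median-of-ratios scaling, 8 fell with the GC and length trend removed, and 9 with that and the replicate block. Leaving out 1 library gave, for the ratio per intron, 49 to 87 that rose and 8 to 19 that fell in J2 RNA, and 31 to 61 and 8 to 21 in input RNA. For the ratio per gene it gave 0 to 1 that fell in either RNA, and 0 to 2 that rose and 0 to 1 that fell in the interaction. For J2 against input it gave 2 to 6 that rose.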

Other observations

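Some introns were already unspliced without drug. DHX15 intron 10 was 100% and 97.1% intronic with drug, against 100% and 100% with DMSO in J2 RNA. Those DMSO values rest on few reads, as the whole gene had a mean of 0.165 RPM of intronic reads there. In input RNA the intron was at 100% and 99.0% with drug, against 72.7% and 84.8% with DMSO. It held 91.4% of the gene's intronic reads in input RNA with drug. SNRNP70 intron 7 went opposite ways in the libraries of the 2 RNAs, at 28.2% and 22.2% with drug, against 14.5% and 12.5% with DMSO in J2 RNA, and at 38.4% and 39.9% with drug, against 48.9% and 42.9% with DMSO in input RNA. PRPF39 intron 3 was 13.3% and 0% intronic with drug, against 70% and 70.6% with DMSO in J2 RNA, on few reads.

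SNRPE showed an uneven pattern along the gene. Its intron 2 junction had 3.81 and 4.65 RPM with drug, against 1.31 and 1.47 RPM with DMSO in input RNA, while the intron 3 junction had 1.11 and 0.896 RPM with drug, against 1.04 and 1.12 RPM with DMSO. In J2 RNA the intron 3 junction had 1.04 and 1.98 RPM with drug, against 0.208 and 0.105 RPM with DMSO. SF3A3 had 5 and 4 intronic reads with drug, against 0 and 0 with DMSO in J2 RNA, too few for a fold change.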
